A study of Homo sapiens with 8 samples.

Results

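The comparison set day 5 against day 2 within NB4 cells carrying a short hairpin RNA against CDK2. It used the 6 arrays of hairpins shCDK2 #1, #3 and #10 out of 8 arrays in all, paired by hairpin number, and the 2 arrays of the scrambled control served to show how far signals moved with time without a CDK2 hairpin. NB4 is a human acute promyelocytic leukaemia line. Each of the 4 constructs was delivered by lentivirus at a multiplicity of infection of 10, and RNA was collected after 2 days, which the labels call early differentiation, or after 5 days, called late. There was 1 Affymetrix array per construct and day, made from 6 µg of total RNA, and no differentiating drug is named in the labels. The labels do not say whether the 2 arrays of a hairpin came from separate cultures. The tests draw on the spread of the day change among the 3 hairpins, which limma moderates toward a value shared by all genes. With 1 array per hairpin and day, the technical part of that spread cannot be told apart.

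CDK2 is a cyclin-dependent kinase that works with cyclins E and A at the entry to and during DNA replication. Promyelocytes are granulocyte precursors that fill primary granules with proteins such as myeloperoxidase, and NB4 cells are halted at that stage by the PML-RARA fusion protein. NF-kB transcription factors sit in the cytoplasm bound to inhibitors such as the NFKBIA product and, once freed, turn on cytokines, chemokines, adhesion molecules and their own inhibitors. Type I interferons act through STAT factors on an antiviral gene programme, which in myeloid cells often accompanies the inflammatory one.

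Promyelocyte markers were checked against the line's label. On the 8 arrays MPO (myeloperoxidase) lay between 13.4 and 14.4 log2, PRTN3 (proteinase 3) between 9.76 and 11.2 log2 and ELANE (neutrophil elastase) between 5.83 and 6.35 log2, just above the mean signal of 5.83 log2 that a gene had to exceed to be tested. That filter is not a measured background. The mean of the 10 fibroblast and epithelial markers lay between 5.52 and 5.66 log2 on the day 2 hairpin arrays and between 5.47 and 5.54 log2 on those of day 5. The 6 measured lymphoid markers averaged 6.93 to 7.27 log2 at day 2 and 6.77 to 7.14 log2 at day 5, and the 6 erythroid and megakaryocyte markers 6.67 to 6.82 log2 and 6.74 to 6.98 log2. CD3D, a T-cell receptor component, lay between 8.81 and 11.3 log2. Array medians lay between 6.30 and 6.43 log2. The array of #3 at day 5 had the lowest median and the lowest mean of the bioB spike-in, 8.69 log2 against up to 9.43 log2 on the other arrays. The part of these markers and of array quality in the results was not tested.

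The targeted gene was measured first, and its signal did not set every hairpin array clearly below the scramble array of its day. On the brightest of its 3 probe sets, CDK2 stood at 7.78 log2 in #1, 9.03 in #3 and 7.54 in #10 at day 2, and at 7.89, 7.72 and 8.08 log2 in the same order at day 5. The scramble arrays gave 9.10 log2 at day 2 and 8.19 at day 5. The array labelled shCDK2 #3 at day 2 was thus near scramble, while the #1 and #10 arrays of that day lay more than 1 log2 below it. At day 5 all 3 hairpins lay below a scramble array that was itself low. On the brightest and middle probe sets #10 lay closest to that array, at 8.08 against 8.19 log2 and at 7.81 against 7.85. Day 5 minus day 2 was 0.11 in #1, -1.31 in #3, 0.54 in #10 and -0.91 in scramble. The middle probe set gave 0.06, -1.42, 0.53 and -1.34 in that order, and the dimmest 0.16, -0.40, 0.27 and 0.01. Day 2 signals lay closer together on the dimmest, at 7.18 log2 in #1, 7.62 in #3 and 7.03 in #10 against 7.51 in scramble. The mean over hairpins on the brightest probe set was -0.22 log2 (SE 0.36, n = 3 pairs), with a limma adjusted p of 0.999. Since #3 at day 2 and #10 at day 5 were near scramble, each hairpin's own values are given below. The main sizes and counts are also given for #1 and #10 alone, a subset that keeps #10 at day 5.

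**Figure D1:**
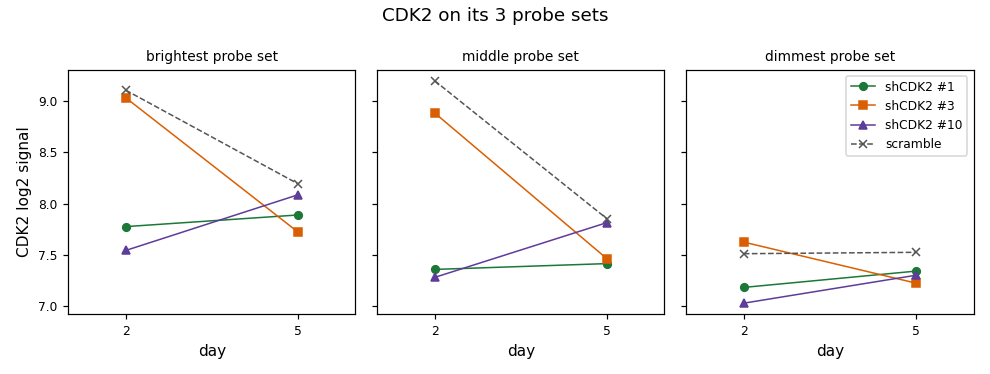
CDK2 log2 signal (y axis) at days 2 and 5 (x axis) on each of the 3 CDK2 probe sets, 1 line per construct and 1 point per array. On the brightest probe set the #3 line starts at 9.03 log2 beside scramble at 9.10 and ends at 7.72, whereas #1 and #10 start at 7.78 and 7.54 and end higher.

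No gene passed the test for a change between day 2 and day 5. With hairpin as the paired block, limma called 0 of 12845 genes higher (0% of those tested) and 0 lower (0%) at an adjusted p under 0.05, and the lowest adjusted p was 0.999. At an unadjusted p under 0.05 there were 560 genes, 394 of them higher at day 5. The median standard error of a change was 0.17 log2. Standard errors and intervals here are moderated, as each gene's spread is drawn toward a shared value (3.68 prior degrees of freedom). For uneven genes they are smaller than the 3 hairpins alone would give. The standard deviation of the change among hairpins was 1.66 log2 for CCL2 and 1.93 for C3. The fit had 2 residual degrees of freedom, so the values below are sizes seen in each hairpin and not established changes. Without #1 the same fit called 223 genes, without #10 it called 105, and without #3 it called 0 with a lowest adjusted p of 0.111 and 1819 genes at an unadjusted p under 0.05. With 1 pair fewer the standard errors of all genes were nearly equal (0.323 to 0.335 without #1, and 0.337 without #10), so calls there follow the size of the change.

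Day 5 minus day 2 differed among the hairpins. Over the genes tested, the standard deviation of the change was 0.27 log2 in #1, 0.58 in #3, 0.46 in #10 and 0.35 in scramble, so #1 moved less between days than the control did. In #3, 739 genes were more than 1 log2 higher at day 5 and 37 were that much lower; in #10 the counts were 277 and 180, in #1 they were 33 and 80, and in scramble 41 and 95. A difference of 1 log2 is 2-fold. Across genes, which are not independent replicates, the change in #1 correlated with that in #10 at r = 0.416, with that in #3 at r = -0.128, and the change in #10 with that in #3 at r = 0.0111. The change in #3 tracked the day 2 difference between #10 and #1 more closely, at r = 0.637, although those arrays are not shared. The array of #3 at day 5 correlated best with #10 at day 2 (r = 0.979) and less with its own day 2 partner (r = 0.945), whereas the #3 array of day 2 correlated best with scramble at day 2 (r = 0.977).

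**Figure D2:**
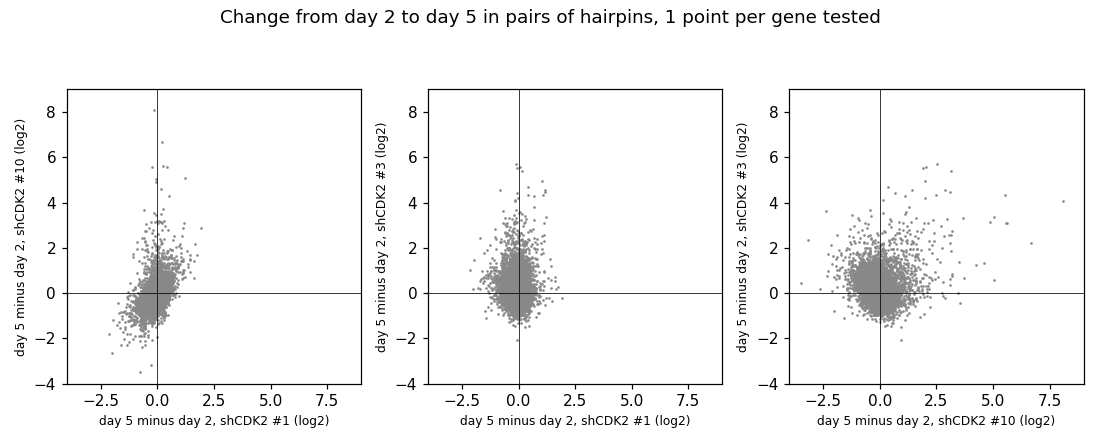
Day 5 minus day 2 (log2) for each of the 12845 genes tested, in #1 against #10 (left), #1 against #3 (middle) and #10 against #3 (right); each grey point is a gene and the lines mark no change. The left cloud slopes upward (r = 0.416), while the middle and right clouds do not (r = -0.128 and 0.0111), and points far above 0 are more frequent for #3 and #10 than for #1.

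Of the genes tested, 1425 (11.1%) were higher at day 5 in all 3 hairpins and 1645 (12.8%) were lower in all 3. Requiring over 0.5 log2 in every hairpin left 57 genes higher (0.444%) and 8 lower (0.0623%). Of the 57, 20 also stood over 0.5 log2 higher in scramble and 14 were lower there; of the 8, 4 also stood that much lower in scramble and 2 were higher. These counts depended on which hairpins were kept. Leaving out #1 gave 311 higher and 29 lower, leaving out #10 gave 85 and 28, and leaving out #3 gave 131 (1.02%) and 288 (2.24%). All 3 day 5 signals lay above all 3 day 2 signals for 359 genes (2.79%) and below them for 398 (3.1%).

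Inflammatory genes were mostly higher at day 5. Of 33 tested members of a list of NF-kB targets and inflammatory cytokines (38 listed), 22 were higher in all 3 hairpins and 0 lower in all 3, against 11.1% and 12.8% of all genes, and 12 exceeded 0.5 log2 in every hairpin, against 0.444%. The median change of the list was 0.27 log2 in #1, 1.81 in #3 and 1.13 in #10, beside 0.01, -0.09 and 0.01 for all genes tested, and it was 0.29 in scramble, where 27 of the 33 were also higher. Over all genes tested, 51.9% were higher at day 5 in #1, 42.3% in #3, 51.2% in #10 and 56% in scramble, the shares to set beside the counts by construct given here and for other lists. Over #1 and #10 alone the list's median was 0.85 log2, and 13 members exceeded 0.5 log2 in both. With #1 left out, 23 did so in both remaining hairpins. None of the 33 passed the adjusted test, and 22 had an unadjusted p under 0.05. The member CXCL3 lay under 5.83 log2 except in #3 and #10 at day 5 (8.06 and 11.45), so it was tested only through those arrays. Members kept in this way add to the list's counts and medians. Without the filter, 12 members still exceeded 0.5 log2 in every hairpin. In bulk RNA, more cells with a transcript and more transcript per cell cannot be told apart.

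Among the chemokines of this list, CCL2, which attracts monocytes, was at 10.91 log2 in #1, 7.94 in #3 and 10.94 in #10 at day 2, and at 12.09, 12.42 and 14.05 at day 5. Every day 5 array lay above every day 2 array, and the scramble arrays, at 10.25 and 11.29 log2, were also ordered that way. Its change averaged 2.92 log2 (moderated SE 0.58, n = 3 pairs, moderated 95% interval 1.47 to 4.37), or 2.14 over #1 and #10. The limma adjusted p was 0.999, and the standard deviation among hairpins was 1.66 log2. CCL3, a macrophage chemokine, was at 7.28, 7.77 and 10.71 log2 in #1, #3 and #10 at day 2 and at 8.42, 12.33 and 13.58 at day 5. Here the days overlapped, because #10 at day 2 was already above #1 at day 5, and scramble stayed at 7.50 and 7.49 log2. The CCL3 change averaged 2.86 log2 (SE 0.60), or 2.01 over #1 and #10, and its probe set may also take up transcripts of near-identical CCL3 copies. CXCL8, the neutrophil-attracting interleukin-8, was at 11.27, 11.42 and 12.51 log2 at day 2 and 12.09, 13.35 and 14.15 at day 5. It was lower at day 5 in scramble (11.83 to 11.37 log2), and the hairpin change exceeded the scramble change by 1.93 log2 (SE 0.48; limma unadjusted p = 0.0078, adjusted p = 0.919). CCL5, a T-cell and monocyte attractant, was the chemokine whose #1 change was larger than its #3 change, with 1.62 in #1, 0.71 in #3, 1.41 in #10 and 0.35 in scramble.

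The cytokine TNF, an upstream activator of NF-kB, was at 11.33 log2 in #1, 10.84 in #3 and 10.99 in #10 at day 2 and at 11.96, 12.18 and 12.06 at day 5. The days did not overlap within the hairpins, but both scramble arrays (11.74 and 11.86 log2) already lay above every day 2 hairpin array. LTB, the membrane partner of lymphotoxin alpha, was not on the list and gave an even difference across hairpins. It was at 8.97, 9.17 and 8.99 log2 at day 2 and 10.35, 10.68 and 10.12 at day 5, a mean of 1.34 log2 (SE 0.15; 1.25 over #1 and #10; limma unadjusted p = 0.00016, adjusted p = 0.999). Scramble went the same way, from 8.97 to 9.95 log2, and the difference between hairpins and scramble was 0.36 log2 (SE 0.30). The interleukin-1 genes were uneven. IL1A, at 5.54 log2 on the #3 array of day 2, was 5.38 log2 higher at day 5 in #3 and 3.15 in #10 but 0.14 in #1. Its scramble change was 0.73. IL1B had changes of 5.71 in #3, 2.53 in #10 and -0.12 in #1.

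Inhibitors and subunits of the NF-kB pathway itself stood higher together. NFKBIA, which holds NF-kB in the cytoplasm, was at 9.52 log2 in #1, 9.68 in #3 and 10.47 in #10 at day 2 and at 10.63, 11.97 and 11.88 at day 5. The days did not overlap, and the mean was 1.61 log2 (SE 0.25; 1.26 over #1 and #10; adjusted p = 0.999 in limma), while scramble went from 9.64 to 10.11. NFKBIE, a second inhibitor of the same family, had changes of 0.71, 0.98 and 0.77 in #1, #3 and #10 and 0.01 in scramble. NFKB1, the p105 precursor of the p50 subunit, had 0.52, 1.17 and 1.26, against -0.21 in scramble. Both kept all day 5 arrays above all day 2 arrays. TNFAIP3, the ubiquitin-editing inhibitor A20, had changes of 0.82, 1.27 and 2.04 with overlapping days, and 0.04 in scramble. RELB, a subunit of the alternative pathway, was higher by 0.52, 0.38 and 0.53, and NFKB2, its partner, by 0.43, 0.13 and 0.50, with 0.29 for each in scramble. ICAM1, an adhesion molecule for leukocytes, had changes of 0.69, 4.29 and 1.13 log2, and scramble moved by 1.91.

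Promoter windows are shown for members of this set in which the letters of an NF-kB motif were found, since the genes share membership of the pathway and direction at day 5. RefSeq windows of 300 bases on GRCh38.p14 (250 before and 50 after a transcript start) were matched for 27 of the 33 tested members and for 8 of the 12 that exceeded 0.5 log2 in every hairpin (CXCL8, TNF, CCL3, TNFAIP3, NFKBIA, NFKB1, ICAM1 and ZFP36L1). The motif GGNNTTTCC was searched on both strands, and it was picked with these results known. It was in 47.5% of the 40 windows of the tested members and in 41.7% of the 12 windows of those 8 genes, against 6.67% of the 14895 windows of tested genes and 6.26% of all 35116 windows. The AP-1 motif TGANTCA was in 15% of the 40 windows and 8.33% of the 12, against 5.67% of the windows of tested genes and 7.71% of all. Some genes have several windows. Counted by gene, the NF-kB motif was in 16 of 27 tested members, 5 of those 8 genes and 923 of 10382 tested genes. The list was put together from NF-kB targets, so a share above that of all genes goes with its membership and does not bear on the day 5 change. A match describes the letters only. The 250 bases before the start follow for 4 of the 5 genes with a match, 5′ to 3′ on the gene's strand, with the NF-kB match in capitals. They are CXCL8 at chr4:73740319-73740568 on the plus strand, NFKBIA at chr14:35404750-35404999 on the minus strand, TNFAIP3 at chr6:137867009-137867258 on the plus strand and ICAM1 at chr19:10270870-10271119 on the plus strand.
CXCL8: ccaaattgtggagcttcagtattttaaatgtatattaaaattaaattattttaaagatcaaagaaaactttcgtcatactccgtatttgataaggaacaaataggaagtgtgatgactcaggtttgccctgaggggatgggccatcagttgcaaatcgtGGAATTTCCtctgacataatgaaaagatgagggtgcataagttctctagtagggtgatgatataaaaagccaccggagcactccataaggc
NFKBIA: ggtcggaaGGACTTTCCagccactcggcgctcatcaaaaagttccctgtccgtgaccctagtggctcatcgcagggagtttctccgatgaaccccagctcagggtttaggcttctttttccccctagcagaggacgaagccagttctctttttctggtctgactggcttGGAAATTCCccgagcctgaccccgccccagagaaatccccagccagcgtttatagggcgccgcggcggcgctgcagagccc
TNFAIP3: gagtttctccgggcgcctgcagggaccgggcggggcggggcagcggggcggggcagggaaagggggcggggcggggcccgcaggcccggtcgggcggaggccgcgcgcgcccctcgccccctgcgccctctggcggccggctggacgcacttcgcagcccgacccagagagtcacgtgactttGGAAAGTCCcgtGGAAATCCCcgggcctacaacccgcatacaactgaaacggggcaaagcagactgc
ICAM1: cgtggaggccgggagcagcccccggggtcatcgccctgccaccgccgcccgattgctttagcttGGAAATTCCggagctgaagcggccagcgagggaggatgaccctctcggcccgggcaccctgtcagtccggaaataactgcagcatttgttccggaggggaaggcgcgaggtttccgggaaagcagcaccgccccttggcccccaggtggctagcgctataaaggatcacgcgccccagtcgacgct
NFKBIA and TNFAIP3, the inhibitors, each held 2 matches, and CXCL8 and ICAM1 held 1 each. NFKB1, the other gene with a match, held 1. Among the 4 shown, ICAM1 had the highest mean change (2.04 log2, SE 0.69) and also the widest spread among hairpins, and TNFAIP3 had 1.38 (SE 0.25). Whether the change follows the number of matches was not tested, as these genes are too few to judge it.

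Other genes that stood higher at day 5 in every hairpin included complement, protease and transcription factor genes. C3, the central complement component, was at 6.26 log2 in #1, 6.82 in #3 and 6.37 in #10 at day 2 and at 7.48, 10.18 and 11.44 at day 5. The days did not overlap, yet #1 ended level with scramble, which went from 6.60 to 7.49 log2. The mean was 3.21 log2 (SE 0.68; 3.14 over #1 and #10; limma adjusted p = 0.999). SGK1, a serum- and glucocorticoid-induced kinase, was at 6.82, 7.21 and 9.76 log2 at day 2 and 7.88, 11.56 and 12.26 at day 5. Its #1 array of day 5 lay below #10 at day 2 and below scramble at day 5, which went from 7.07 to 8.02 log2. MMP9, a gelatinase stored in neutrophil granules, was at 11.03, 10.66 and 12.73 log2 at day 2 and 12.16, 13.77 and 13.75 at day 5. Its scramble change of 1.36 was larger than that of #1 (1.13) or #10 (1.03). THBS1, the matrix protein thrombospondin-1, averaged 2.66 log2 (SE 0.71), a value carried by #3, whose day 2 array was at 6.59 log2 against 9.89 in #1, 10.86 in #10 and 9.12 in scramble; over #1 and #10 the mean was 1.51. JUN, a subunit of AP-1, was at 7.11, 6.82 and 9.38 log2 at day 2 and 8.13, 9.34 and 10.96 at day 5, beside 6.30 and 7.08 in scramble. SUSD6 was at 8.08, 8.20 and 9.07 log2 at day 2 and 9.09, 10.16 and 11.24 at day 5, with a scramble change of 0.37.

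**Figure D3:**
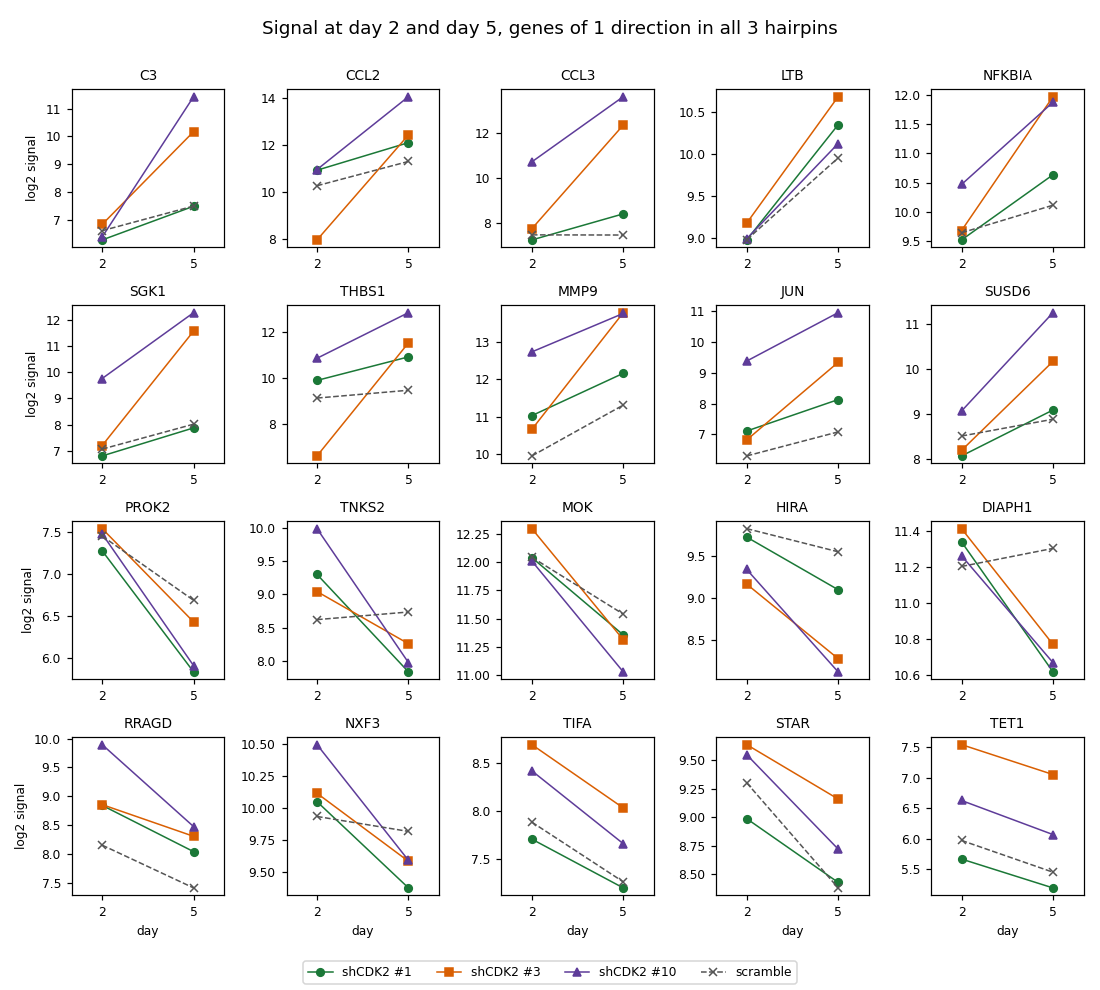
Log2 signal (y axis, scaled for each gene) at days 2 and 5 (x axis) for the 10 genes with the highest and the 10 with the lowest change in their least-moved hairpin; solid lines are hairpins, the dashed line is scramble, and each point is 1 array. For LTB, PROK2 and STAR the dashed line runs the same way as the solid ones, whereas for TNKS2 and DIAPH1 it stays nearly level.

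Few genes stood lower by over 0.5 log2 in every hairpin. PROK2, a secreted prokineticin made by neutrophils, was at 7.28 log2 in #1, 7.54 in #3 and 7.48 in #10 at day 2 and at 5.83, 6.43 and 5.91 at day 5. All day 5 arrays lay below all day 2 arrays, and scramble went from 7.45 to 6.69. The mean was -1.37 log2 (SE 0.16; -1.50 over #1 and #10; limma unadjusted p = 0.00018, adjusted p = 0.999). TNKS2, the poly-ADP-ribosyltransferase tankyrase 2, was at 9.30, 9.04 and 10.00 log2 at day 2 and 7.83, 8.25 and 7.97 at day 5. Its scramble arrays, at 8.62 and 8.73, lay between the days, and the hairpin change was below the scramble change by -1.55 log2 (unadjusted p = 0.024 and adjusted p = 0.919 in limma). DIAPH1, a formin that nucleates actin filaments, had a narrow range, at 11.34, 11.42 and 11.26 log2 at day 2 and 10.62, 10.77 and 10.67 at day 5, while scramble was at 11.20 and 11.31. HIRA, the chaperone that deposits histone H3.3, was at 9.73, 9.17 and 9.34 log2 at day 2 and 9.10, 8.28 and 8.12 at day 5. MOK, a kinase related to MAP kinases, had changes of -0.69, -0.99 and -0.98 against -0.50 in scramble. RRAGD, a Rag GTPase of amino acid signalling to mTORC1, had -0.80, -0.55 and -1.42 against -0.74. NXF3, of the nuclear RNA export factor family, had -0.67, -0.53 and -0.90 against -0.12. TIFA, an adaptor that binds TRAF6, had -0.51, -0.66 and -0.76. The next genes in rank did not reach 0.5 log2 in every hairpin: STAR, which carries cholesterol into mitochondria, had -0.56, -0.48 and -0.83, and TET1, which oxidises 5-methylcytosine, had -0.47, -0.49 and -0.56. For TIFA, STAR and TET1 the scramble change (-0.62, -0.92 and -0.52) lay near or beyond the hairpin means of -0.64, -0.62 and -0.51.

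Interferon-induced genes separated #1 from the other hairpins. Of 35 tested members, 33 were higher at day 5 in #3, 33 in #10 and 13 in #1, and the medians were 1.24, 1.88 and -0.11 log2. In scramble 22 were higher with a median of 0.16. Of the 35, 11 (31.4%) were higher and 0 lower in all 3 hairpins, beside 11.1% and 12.8% of all genes. Of these, 1, IFIH1, exceeded 0.5 log2 in each hairpin. IFIT1, an antiviral RNA-binding protein, was at 6.93 log2 in #1, 6.89 in #3 and 8.85 in #10 at day 2 and at 6.32, 10.19 and 12.53 at day 5. It was lower at day 5 in #1 and in scramble (6.72 to 6.52) and higher in the other hairpins. IFIT2 had changes of -0.83, 4.57 and 1.40 and IFIT3 of -0.55, 2.97 and 2.72. PLSCR1, an interferon-induced scramblase, was level in #1 at 0.04 and 2.20 and 3.11 higher in #3 and #10. IFIH1, the RNA sensor MDA5, was at 6.14, 6.69 and 7.31 log2 at day 2 and 6.89, 8.20 and 9.83 at day 5, with 5.86 and 6.40 in scramble.

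Genes of monocytes and macrophages, 18 tested, split in the same way. In #1 9 were higher with a median of 0.03 log2, in #3 14 with 0.93 and in #10 15 with 1.10, and 16 were higher in scramble with 0.33. CD14, the lipopolysaccharide co-receptor, was at 5.50 log2 in #1, 5.30 in #3 and 5.76 in #10 at day 2 and at 5.45, 8.43 and 10.65 at day 5. CD163, the haemoglobin scavenger receptor, was at 4.88, 4.81 and 4.70 log2 at day 2 and 4.66, 7.92 and 10.27 at day 5. For both genes #1 and scramble lay near each other on both days and #3 and #10 stood higher at day 5. Every other array of these genes lay under the 5.83 log2 of the filter, so both were tested only because of the 2 arrays where they are high. The list's counts and medians in #3 and #10 include them, and are to that extent set by the filter. C3AR1, the C3a receptor, was the member over 0.5 log2 in every hairpin, with 0.52, 2.78 and 1.28. C5AR1, the C5a receptor, had 0.43 in #1, 0.38 in #10 and 4.69 in #3, whose day 2 array was at 4.28 log2 and whose day 5 array, at 8.97, was near #10 on both days (8.60 and 8.98). The C5AR1 arrays of #1 and scramble, at 4.13 to 4.95 log2, also lay under 5.83 log2, so the size of 4.69 is set against a signal that may be background, which was not tested.

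The monocyte chemokines CCL8 and CCL7 spanned several log2 units among hairpins. CCL8 was at 5.10 log2 in #1, 5.17 in #3 and 5.11 in #10 at day 2 and at 4.94, 9.22 and 13.19 at day 5, with scramble at 4.92 and 4.94. CCL7 was at 4.43, 4.50 and 5.74 log2 at day 2 and 4.64, 6.70 and 12.42 at day 5. Both passed the filter only through #3 and #10 at day 5, as the other arrays lay under 5.83 log2, so their span is counted from a low signal. IER3, an early response gene linked to cell survival, was at 6.24, 6.25 and 7.43 at day 2 and 6.68, 10.58 and 12.98 at day 5. All 3 were lowest in #1 and highest in #10 at day 5. TCN1, a vitamin B12 binder of secondary granules at 5.80 to 6.12 log2 at day 2 and in scramble, was 5.04 log2 higher at day 5 in #10 against 0.56 in #3 and -0.06 in #1, and CTSL, a lysosomal protease, was 3.70 against 0.66 and 0.26.

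Neutrophil maturation genes were more often higher at day 5 in #3 than in #1 or #10. Of 21 tested members of the secondary granule and maturation list, 14 were higher at day 5 in #3 (median 0.56 log2), 6 in #1 (-0.13) and 8 in #10 (-0.21), and 15 in scramble (0.25). The median of the mean change was 0.19 with all hairpins and turned to -0.24 without #3. MMP9, given above, was higher in all 3 hairpins, and FPR1, the formyl peptide receptor, had -0.04 in #1, 1.63 in #3 and 1.07 in #10. S100A8, a calprotectin subunit, was at 8.13 log2 in #1, 7.36 in #3 and 10.37 in #10 at day 2 and at 7.43, 11.00 and 7.98 at day 5. The #3 arrays were the lowest of day 2 and the highest of day 5, and #10 was the highest of day 2. ITGAM, the integrin CD11b, was at 7.70, 7.21 and 11.16 log2 at day 2 and 7.57, 10.51 and 10.20 at day 5. CYBB, the catalytic subunit of the phagocyte oxidase, was at 10.27, 8.95 and 10.96 log2 at day 2 and 9.71, 11.47 and 9.60 at day 5. TGFBR2, a TGF-beta receptor, had changes of -1.03, 2.84 and -1.30, although its other probe set averaged -0.03 over hairpins. All 5 tested oxidase genes were higher at day 5 in #3 and in scramble, against 1 in #1 and 2 in #10, and without #3 the list's median went from 0.20 to -0.16.

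**Figure D4:**
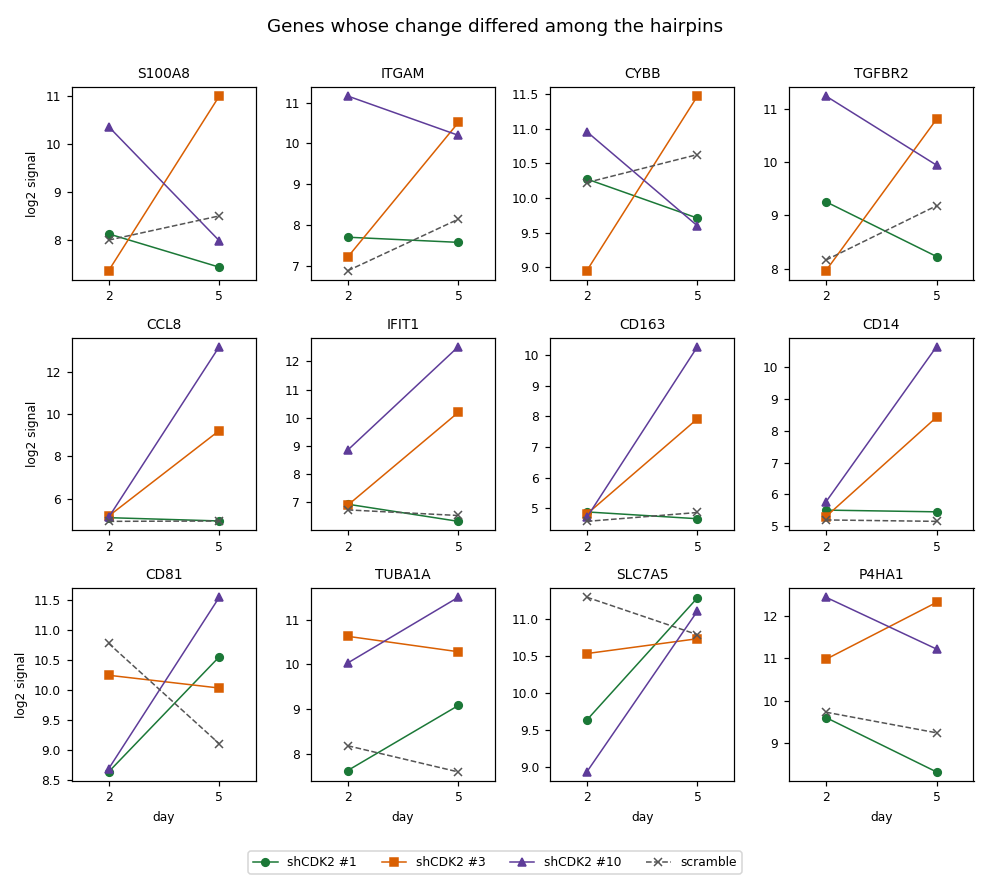
Log2 signal (y axis, scaled for each gene) at days 2 and 5 (x axis) for 12 genes whose change differed among hairpins; solid lines are hairpins, the dashed line is scramble, and each point is 1 array. In S100A8, ITGAM, CYBB and TGFBR2 the #3 line climbs while #1 and #10 descend; in CCL8, IFIT1, CD163 and CD14 #1 stays near scramble; in CD81 and TUBA1A #1 and #10 climb while #3 does not.

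Primary granule genes had 0 of 14 (0%) higher and 1 (7.14%) lower in all 3 hairpins, beside 11.1% and 12.8% of all genes. Their medians were -0.45 log2 in #1, 0.11 in #3, -0.16 in #10 and -0.24 in scramble. AZU1, the granule protein azurocidin, was at 9.26 log2 in #1, 9.91 in #3 and 10.50 in #10 at day 2 and at 8.47, 10.00 and 8.39 at day 5, so #1 and #10 stood lower at day 5 and #3 did not. CTSG, cathepsin G, had changes of -0.40, -1.29 and 0.02 and -1.33 in scramble. CFD, another member, went the other way in #3, with -0.50, 3.10 and -0.63 against 0.93 in scramble. Of the 14, 3 were higher at day 5 in #1, 8 in #3, 5 in #10 and 5 in scramble. Among 25 myeloid transcription factors, 10 (40%) were higher and 4 (16%) lower in all 3 hairpins, beside 11.1% and 12.8% of all genes. In scramble 18 of the 25 were also higher, with a median of 0.32 log2. The hairpin medians were -0.04 in #1, 0.66 in #3 and 0.24 in #10. CEBPB, a C/EBP factor of monocyte and emergency granulocyte programmes, was at 9.29, 9.28 and 10.11 log2 at day 2 and 9.90, 10.86 and 11.67 at day 5, while scramble went from 9.65 to 9.47. BCL6, a repressor that opposes inflammatory targets, had 0.22, 2.98 and 1.20 against 0.53 in scramble, and BHLHE41 had 0.82, 2.41 and 0.95 against 0.48.

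Cell-cycle genes were mixed. Of 45 tested E2F and DNA replication genes, 7 (15.6%) were higher and 11 (24.4%) lower in all 3 hairpins, beside 11.1% and 12.8% of all genes. Their medians were 0.00 log2 in #1, -0.10 in #3, -0.02 in #10 and -0.15 in scramble. CDT1, which licenses replication origins, was at 10.28, 11.16 and 10.48 log2 in #1, #3 and #10 at day 2 and 10.03, 10.04 and 10.16 at day 5. Its days did not overlap, and the #3 array of day 2 stood above the rest. CCNE2, another member, was at 7.99, 5.30 and 8.14 log2 at day 2 and 7.74, 7.99 and 7.16 at day 5. There the #3 array of day 2 was the lowest, and scramble was at 7.44 and 7.71. Of 49 G2/M genes, 0 (0%) were higher and 5 (10.2%) lower in all 3, and 33 were higher in #1, 8 in #3 and 32 in #10. The medians were 0.09, -0.26 and 0.10 log2 in that order and 0.00 in scramble. The list's median of -0.04 turned to 0.10 without #3. CKAP2L, a spindle protein, had even changes of -0.46, -0.41 and -0.50 against 0.10 in scramble. CDKN1A, the CDK inhibitor p21, was at 7.87, 7.22 and 9.16 log2 at day 2 and 8.09, 8.84 and 10.72 at day 5, and scramble went from 7.00 to 7.84. Its change was higher than 0 in all 4 constructs. BAX, a p53 target that permeabilises mitochondria, had -0.42, -0.33 and -0.74 on its brighter probe set, and the dimmer one averaged 0.21 over hairpins.

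Cholesterol synthesis genes were lower at day 5 in #3 and mostly higher in #1 and #10. None of 20 tested members was higher at day 5 in #3 (median -0.57 log2), while 17 were in #1 (0.21), 14 in #10 (0.19) and 8 in scramble (-0.13), and the median of -0.05 turned to 0.19 without #3. DHCR7, the last enzyme of cholesterol synthesis, was at 9.01, 10.92 and 9.05 log2 at day 2 and 9.46, 9.48 and 9.54 at day 5, so the hairpins were level at day 5 and the #3 array of day 2 alone stood apart. Of 30 integrated stress and unfolded protein response genes, 8 (26.7%) were higher and 2 (6.67%) lower in all 3 hairpins, and 5 had all day 5 arrays above all day 2 arrays, beside 11.1%, 12.8% and 2.79% of all genes. SLC7A5, a large neutral amino acid transporter, was at 9.63, 10.54 and 8.93 log2 at day 2 and 11.29, 10.74 and 11.11 at day 5, with scramble at 11.30 and 10.79. The day 2 arrays of #1 and #10 were thus low and the day 5 arrays lay near scramble, and its other probe set averaged -0.05 over hairpins. SLC3A2, its heavy chain, had changes of 0.71, 0.16 and 1.06, and HSPA5, the endoplasmic reticulum chaperone BiP, had 0.18, 0.97 and 0.77 against -0.58 in scramble.

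The comparison with scramble called 0 genes (0%), with a lowest adjusted p of 0.919 in limma and 333 genes at an unadjusted p under 0.05. It called 48 without #1, 4 without #10 and 0 without #3. Scramble had 1 array per day, so its pair was assumed to vary as the hairpin pairs did. Ribosome assembly genes were lower in scramble and near level in hairpins: 0 of 43 were higher at day 5 in scramble (median -0.58 log2), against 29 in #1 (0.10), 12 in #3 (-0.09) and 29 in #10 (0.12). The median over hairpins, 0.01, was near that of all genes, and it turned to -0.04 with quantile normalization. Of the 43, 10 had an unadjusted p under 0.05 for the difference, against 333 of all genes, and none passed. RRP1B, a nucleolar protein, was at 9.60, 10.33 and 9.43 log2 at day 2 and 9.91, 10.42 and 9.90 at day 5 in #1, #3 and #10, while scramble went from 10.87 to 10.12. Heat shock genes had 18 of 22 higher in #1, 9 in #3, 17 in #10 and 2 in scramble. DNAJB1, a heat shock protein 40 co-chaperone, had 0.46, 0.96 and 0.42 against 0.02.

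Single genes with the widest gap to scramble included some that were level in hairpins and some that were not. CHORDC1, an HSP90 co-chaperone, was at 8.64, 8.56 and 8.25 log2 at day 2 and 8.78, 8.82 and 8.33 at day 5 in hairpins, and at 9.61 and 8.03 in scramble. AK4, a mitochondrial adenylate kinase, had changes of 0.20, 0.23 and 0.04 against -1.49, and PALS2, a cell polarity scaffold, 0.22, 0.22 and 0.37 against -1.32. CPOX, an enzyme of haem synthesis, had 0.57, -0.80 and 0.23 against -2.68, the scramble array of day 5 being at 6.57 log2 where the hairpin arrays lay between 8.42 and 9.26. In the first 3 of these genes the hairpin values were within 0.5 log2 of 0, whereas CPOX exceeded that in #1 and #3. On the other side, ARL2, a GTPase of tubulin folding, had -0.36, -0.47 and -0.64 against 0.54, TSC22D3, the glucocorticoid-induced leucine zipper protein, -0.23, -0.23 and -0.29 against 0.74, LILRA2, a leukocyte immunoglobulin-like receptor, -0.23, -0.29 and -0.95 against 0.64, and DBNDD1 -0.32, -0.11 and -1.29 against 0.87. The brightest ARL2 probe set was used, and the other averaged 0.03 over hairpins. For CD81, a tetraspanin, #1 and #10 were at 8.63 and 8.68 log2 at day 2 and 10.56 and 11.55 at day 5, #3 was at 10.25 and 10.03, and scramble at 10.78 and 9.10.

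Genes selected on #1 and #10 alone were mostly higher at day 5 in #3, whichever way they had been selected. Of the 131 genes over 0.5 log2 higher in both, 96 were also higher in #3 (median 0.32) and 66 in scramble. Of the 288 that much lower in both, 234 were higher in #3 (median 0.53) and 133 in scramble. P4HA1, a collagen prolyl hydroxylase induced by hypoxia, was at 9.61 log2 in #1, 10.98 in #3 and 12.43 in #10 at day 2 and at 8.33, 12.31 and 11.22 at day 5. ERO1A, an oxidoreductase of the endoplasmic reticulum, had -1.24, 1.00 and -1.23. TUBA1A, an alpha-tubulin, had 1.46 in #1, -0.35 in #3 and 1.47 in #10, and its probe set may take up other tubulin transcripts.

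**Figure D5:**
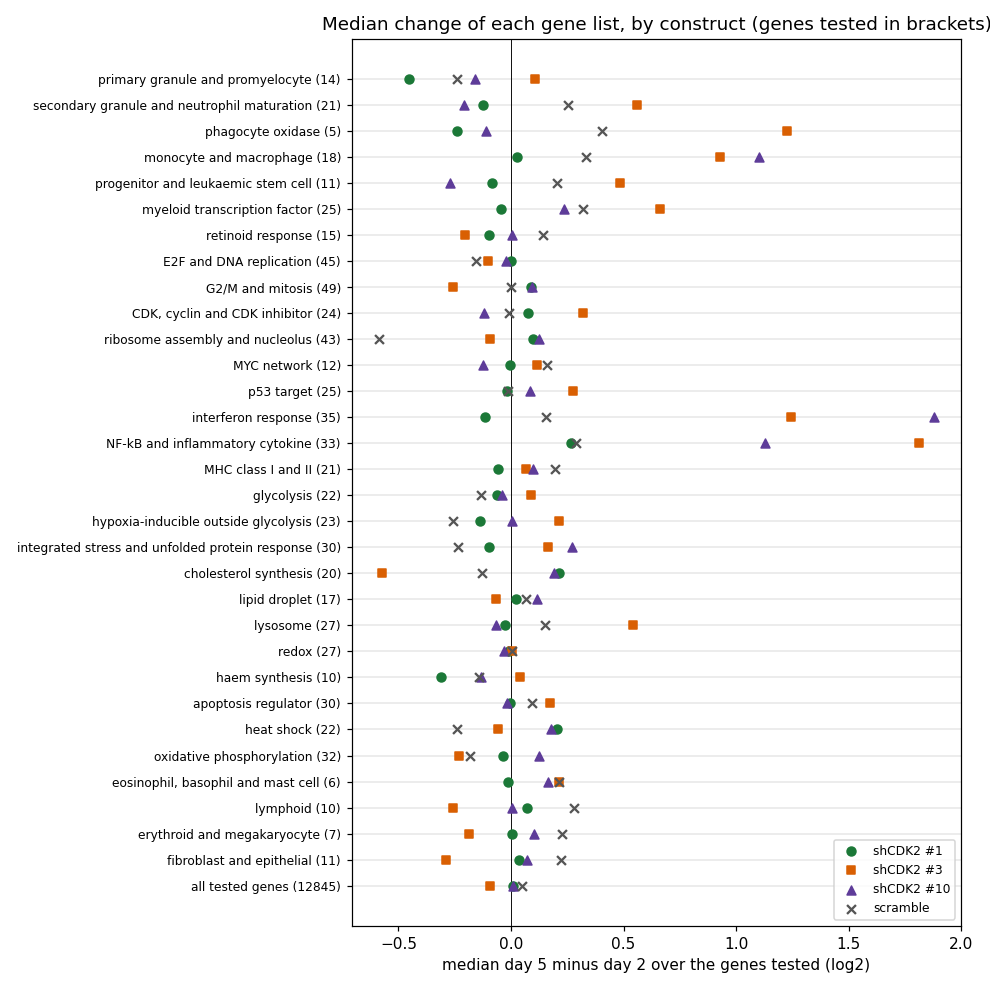
Median day 5 minus day 2 (log2, x axis) over the tested genes of each of 31 gene lists and over all tested genes (y axis, number tested in brackets), 1 symbol per construct. The NF-kB and interferon medians reach 1.81 and 1.24 log2 in #3 and 1.13 and 1.88 in #10, against 0.27 and -0.11 in #1; ribosome assembly is lowest in scramble at -0.58 and cholesterol synthesis in #3 at -0.57.

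The lists not described above had medians of the mean hairpin change between -0.11 log2 (haem synthesis) and 0.21 (apoptosis regulators, which turned to -0.03 without #3), beside -0.03 for all genes tested. Of 27 lysosome genes 7 (25.9%) were higher and 1 (3.7%) lower in all 3 hairpins, beside 11.1% and 12.8% of all genes, and the median of 0.15 turned to -0.06 without #3. ATP6V0D1, a subunit of the vacuolar proton pump, was at 10.34, 10.05 and 9.41 log2 at day 2 and 10.86, 10.71 and 10.51 at day 5, with days that did not overlap and a scramble change of 0.67. Of 32 oxidative phosphorylation genes 1 (3.12%) was higher and 7 (21.9%) lower in all 3, and 3 were higher in scramble. PLIN2, a lipid droplet coat protein, had changes of 0.36, 1.61 and 0.71 against 0.24. Lists of other cell types had medians of -0.08 (fibroblast and epithelial), -0.06 (lymphoid) and -0.06 (erythroid and megakaryocyte) over hairpins, and each of these turned above 0 without #3.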

How the data were processed

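Expression was measured on 8 Affymetrix arrays of NB4 cells. The authors' deposited values are log2 signals per array of 49395 probe sets, made with Partek per the submitters' processing notes; its version, background correction and normalization are not given in the sources consulted, and the log2 scale was inferred from the range of the values. Values were used as deposited. Arrays carry no read depth, and precision is set by how few there are.

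The annotation gave 44994 probe sets a single gene, 1832 several genes and 2569 none. The brightest single-gene probe set on average stood for a gene, and signals of different probe sets share no scale. A gene was tested if its average over all arrays exceeded 5.83 log2, the 40th percentile, which kept 12845 of 18132 genes. Day 5 arrays are part of that average, so a gene high on a few of them can pass through those alone. Changes were fitted with limma 3.58.1 in R 4.3.3 (tables read with data.table, version 1.17.8), with hairpin number as a block and a moderated two-sided test adjusted by Benjamini-Hochberg. The comparison with scramble used all 8 arrays. The script was tested on simulated data. Hairpins were the replicates, and they are paired because both arrays of a pair carry the same construct. Deviations from the day means correlated within pairs at r = 0.715 (#1), -0.228 (#3) and 0.432 (#10).

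Genes were named by rule: CDK2, per direction 10 genes ranked by the hairpin in which they moved least, up to 4 members of each of 31 lists with the largest mean change, per direction the 5 with the widest gap to scramble, and per hairpin and direction the 4 with the widest gap to the other hairpins. Not every gene that the rule gave is described above. Those left out include GPAT3, RBP4, SCPEP1 and FCN1, with changes of -3.19, -3.48, -1.92 and -2.07 in #10, below the other hairpins. KATNAL1, IMMP2L, DGKE and HLA-DQA1, with 1.61, 0.94, 0.64 and 0.41 in #1, above the others, were also left out. Other members of the NF-kB list, the promoter genes and the rest were chosen after their values were seen. The comparison, the lists and the motifs were chosen with earlier results of these data known. Promoter windows came from RefSeq (GRCh38.p14). Alternatives were no pairing, other scaling, filters, probe-set means, a prior trend and each hairpin left out.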

Additional observations from a re-analysis of the deposited data

How the results depend on the processing

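With no replicate block, in place of the paired fit, 0 genes were called for the time change, 0 for the difference from scramble, and the counts over 0.5 log2 stayed at 57, 8 and 12 (NF-kB members); the lowest adjusted p was 1.00 and 260 genes had an unadjusted p under 0.05. Pairing therefore changed no call. No gene was called under quantile normalization, median centring, no filter, a filter at the 60th percentile, probe-set means or a prior trend, with lowest adjusted p-values in limma of 0.863 to 1.00 and 440 to 713 genes at an unadjusted p under 0.05. Quantile normalization gave 18 genes over 0.5 log2 lower in every hairpin in place of 8, and averaging the probe sets of each gene gave 32 higher and 3 lower in place of 57 and 8. Leaving out 1 hairpin at a time gave 0 to 223 calls for the time change and 0 to 48 for the difference from scramble, 85 to 311 genes higher and 28 to 288 lower by over 0.5 log2, and 13 to 23 NF-kB members. MLXIP reversed from 0.24 to -0.0209 with its probe sets averaged. The 20 genes shown by day kept their sign under other scaling, filters and probe-set means where tested; their selection fixes the sign when hairpins are left out. Without #3, 18 of 31 list medians kept their sign. Dropping the array labelled shCDK2 #3 at day 2, with no replicate block, left 0 calls with a lowest adjusted p of 0.565. With 3 pairs, changes that differ among hairpins cannot be resolved.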

Other observations

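Genes alike in #1 and #10 were picked after their values were seen and are given as values. DLD, a dehydrogenase subunit shared by mitochondrial 2-oxoacid complexes, was at 9.75 log2 in #1, 11.46 in #3 and 9.89 in #10 at day 2 and at 11.49, 11.72 and 11.58 at day 5, with scramble at 11.57 and 11.67. QDPR, which regenerates tetrahydrobiopterin, was at 9.06, 10.27 and 8.28 log2 at day 2 and 10.49, 10.50 and 9.96 at day 5. Its scramble arrays were at 10.88 and 10.54. In both genes #1 and #10 were low at day 2 and near scramble at day 5. RAB2A, a GTPase of traffic between the endoplasmic reticulum and the Golgi, had changes of 1.43, 0.56 and 1.51 in #1, #3 and #10 and -0.04 in scramble.

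Genes lower at day 5 in #1 and #10 included SLC40A1, the iron exporter ferroportin, at 7.33 log2 in #1, 6.69 in #3 and 8.54 in #10 at day 2 and at 5.34, 6.87 and 5.90 at day 5, near the 5.83 log2 of the filter in #1 and #10. METTL9, a histidine methyltransferase, had changes of -2.15, 1.01 and -1.79 against -0.02 in scramble. TMX4, a thioredoxin-related membrane protein, had -1.59, 0.99 and -2.29, and DCTN4, a dynactin subunit, -1.65, 0.62 and -1.53. AP1S2, a clathrin adaptor subunit, had -1.53, 1.77 and -1.73 against 0.99. Only #3 was above 0 among the hairpins in these 5 genes.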
